A study of Mus musculus with 35 samples.

Results

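Among single cells of the mouse small intestine sorted for YFP 5 days after labelling of Lgr5-expressing cells, the cycling cells were taken as the wells rich in mitotic transcripts. Of 432 wells on 5 plates, 291 held at least 3000 counts, and 124 of these were called cycling. They were chosen by the measured counts of 10 mitotic genes: Mki67, Top2a, Ccnb1, Ccnb2, Cdk1, Birc5, Ube2c, Cenpf, Cdc20 and Plk1 together had at least 3 counts and at least 0.15% of the well's counts. They were set against 101 low wells of the same plates, in which the same 10 genes held under 0.05%, and the remaining 66 wells lay in between. The tables used for the whole series hold 1584 wells, 952 of them with at least 3000 counts. The study sequenced single cells by CEL-seq, which tags each cell's polyadenylated RNA with a well barcode and a random molecular barcode, from cultured intestinal organoids and from cells taken directly from the intestine. The YFP cells came from small intestinal crypts of C57BL/6 Lgr5-YFP mice carrying an Lgr5-driven Cre and a YFP gene at Rosa26 that is silent until Cre removes a loxP-flanked stop, so the label marks cells that expressed Lgr5 at induction together with their descendants. The Lgr5-EGFP cells, used here for comparison, came directly from small intestinal crypts of C57BL/6 Lgr5-EGFP mice and were sorted for EGFP driven by Lgr5 on 2 plates. The labels do not say which plates came from which mouse, so p-values over plates measure the spread between plates only.

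The crypt of the small intestine holds Lgr5-expressing stem cells at its base and, above them, transit-amplifying cells that divide before they differentiate into absorptive enterocytes or into secretory Paneth, goblet, enteroendocrine and tuft cells. Transcripts of the cell cycle follow its phases: replication genes under E2F factors rise from late G1 into S phase, and genes of G2 and mitosis, many with a CHR promoter element, rise later and are degraded or silenced after division. A well rich in mitotic transcripts therefore marks a cell late in the cycle, and a cell in early S phase can lack them.

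The 124 cycling wells were spread over all 5 plates, with 33, 28, 23, 14 and 26 wells on plates 1 to 5, against 30, 20, 27, 5 and 19 low wells. Plate 4 held 48 wells, and the other plates 96 each. All 5 plates use one set of well barcodes, 48 of which occur on every plate, and no 2 wells held identical values. The 10 genes held from 0.156% to 0.790% of a cycling well's counts, with a median of 0.281%, and between 4 and 10 of them had a count, with a median of 8. Mki67, a nuclear protein of proliferating cells, had a count in 121 of the 124 cycling wells, and Ube2c, a ubiquitin-conjugating enzyme of the anaphase-promoting complex, in 120. Cdk1, the kinase that drives entry into mitosis, was found in 114 cycling wells, its partners Ccnb1 in 101 and Ccnb2 in 98, and the large kinetochore protein Cenpf in 64. These genes chose the wells, so their levels are a description and support nothing further. The 10 genes formed a continuum with no gap at either threshold: the nearest wells above and below 0.15% had 0.156% and 0.148%, and the nearest below and above 0.05% had 0.0493% and 0.0510%. Cycling wells held a median of 8871 counts and low wells a median of 7078 counts. Total counts per YFP plate lay between 293702 and 818192. No doublet caller was run on these sorted wells.

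**Figure D1:**
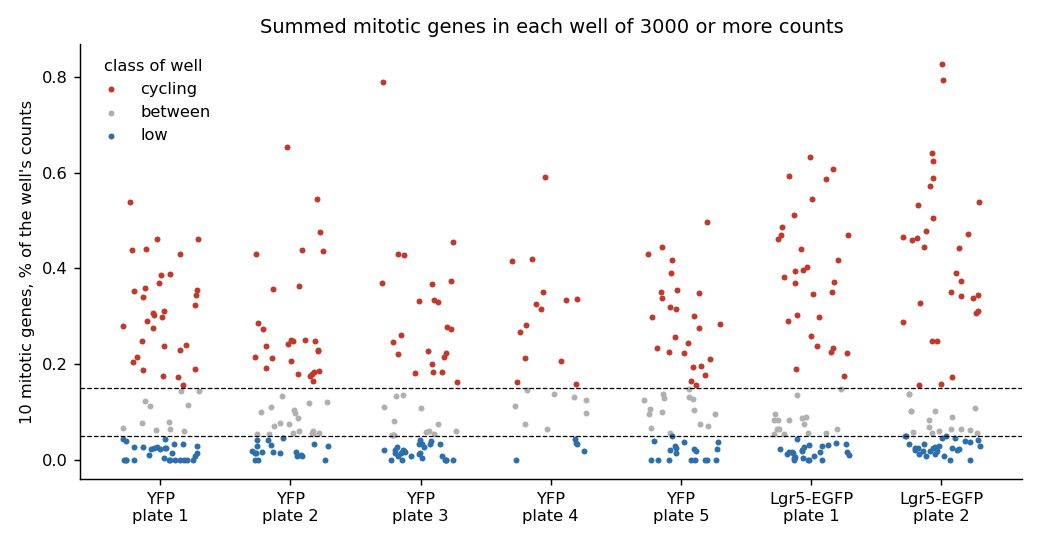
Share of each well's counts in the 10 mitotic genes (vertical axis, %), for every well of at least 3000 counts on the 5 YFP plates and the 2 Lgr5-EGFP plates. Points are wells coloured by class, dashed lines mark 0.15% and 0.05%, and cycling, in-between and low wells occur on every plate without a break between them.

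Transcripts of G2 and mitosis outside the 10 genes separated the 2 classes of wells almost fully, and transcripts of S phase did not. In a list of 66 other G2 and mitosis genes, cycling wells held a median of 0.677% of their counts (0.212% to 1.32%), and low wells a median of 0.0660% (0.0146% to 0.325%). The 2 ranges met at their edges, where 2 of 101 low wells reached the lowest cycling well. The 66 in-between wells, which belong to neither class, held a median of 0.199% (0.0295% to 0.556%) and bridged the 2 ranges. In a list of 71 S phase and DNA replication genes, cycling wells held a median of 0.413% (0.116% to 1.09%), against a median of 0.170% in low wells (0 to 1.08%). Here the ranges overlapped almost completely. Of the low wells, 25 of 101 (24.8%) were at or above the cycling median of the S phase list, and 37 of the 66 in-between wells (56.1%) were. Such low wells occurred on each plate, with 7, 4, 6, 2 and 6 wells on plates 1 to 5. Across the 124 cycling wells the 10-gene share went with the share of other G2 and mitosis genes (Pearson r = 0.75) and against the share of S phase genes (r = -0.31). Both correlations are descriptions over wells that share plates and a common total.

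**Figure D2:**
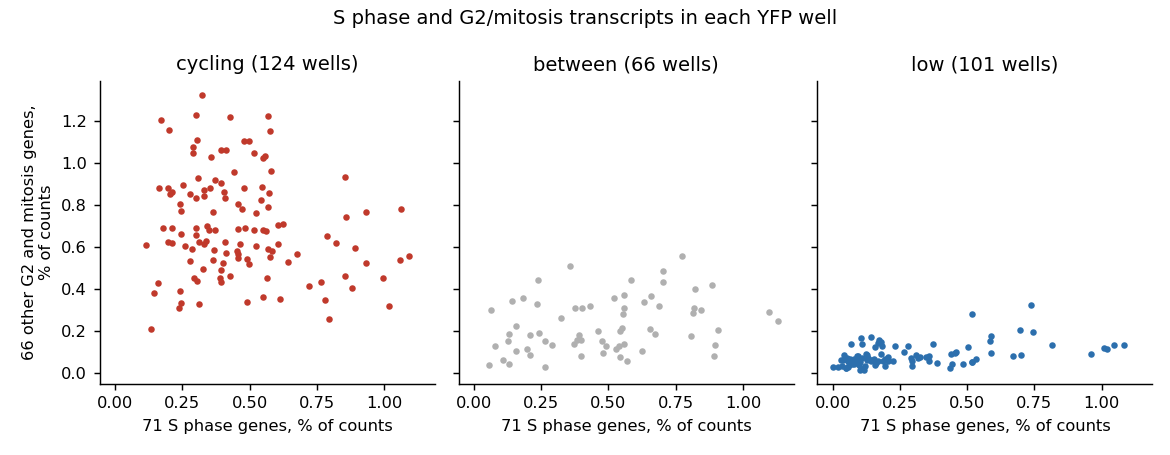
Share of counts in 66 other G2 and mitosis genes (vertical axis, %) against the share in 71 S phase genes (horizontal axis, %), 1 point per YFP well, in panels for cycling, in-between and low wells. Cycling wells lie above 0.21% on the vertical axis, and the highest S phase shares were 1.09%, 1.13% and 1.08% in the 3 panels.

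Genes were then compared after summing the wells of each class on each plate, which gives 5 cycling and 5 low sums. Each gene was fitted with edgeR's quasi-likelihood test with plate as a block, and values are given as CPM, counts scaled to the library size with TMM factors. In sums, more cells with a transcript and more transcript per cell cannot be told apart. Of 3997 genes tested, 274 (6.86%) were higher and 362 (9.06%) were lower in cycling wells at a Benjamini-Hochberg adjusted p below 0.05, and 1070 had an unadjusted p below that value. DESeq2 called 123 higher and 198 lower. Leaving out plate 1, 2 or 3 gave 391, 424 or 419 calls in all.

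The machinery that builds the spindle, separates chromosomes and cleaves the cell made up the largest increases. Of the 66 other G2 and mitosis genes, 41 passed the filter on low counts and all of these 41 were higher, with a median log2 fold change of 3.20, beside 6.86% of all genes tested. Genes near 0 in low wells could pass that filter only through the cycling wells, so this count describes which genes were measurable and is not evidence about the list. The increases ran from 1.35 on the log2 scale for Spc24, a kinetochore subunit, to 5.26 for Prc1. Prc1, which bundles antiparallel microtubules in the central spindle, had 122, 121, 120.2, 148 and 111 CPM in cycling wells of plates 1 to 5, against 3.68, 6.50, 0, 0 and 0 CPM in low wells. Its low sums held 2 counts in all, so the ratio of summed counts was 55.1, with a counting interval from 15.0 to 459. Ckap2l, a spindle protein, had 73.9, 59.1, 92.4, 82.1 and 82.7 CPM in cycling wells, against 0, 0, 9.89, 0 and 0 CPM in low wells. The plate sums of both genes did not overlap between classes, but the rule that named them already required the same direction on every plate.

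The mitotic kinases, motors and their partners were higher in cycling wells. Aurkb, the kinase of the chromosomal passenger complex, was at 116, 109, 166, 164 and 92.2 CPM in cycling wells and 7.35, 12.995, 0, 0 and 0 CPM in low wells (log2 fold change 4.46 ± 0.45 SE, adjusted p = 3.45e-06). Aurka, the kinase of the spindle poles, averaged 108 ± 32.3 CPM in cycling wells and 5.65 ± 8.30 CPM in low wells (SD, n = 5 plates each). Ccna2, the cyclin of S phase and G2, averaged 286 ± 26.8 CPM in cycling wells and 15.6 ± 12.9 CPM in low wells (log2 fold change 4.02 ± 0.28, adjusted p = 8.25e-08). These 3 genes were named by a rule that required the same direction on every plate, so their agreement over plates is no separate result. The chromosome-bound kinesins Kif4 and Kif22 had log2 fold changes of 4.41 ± 0.57 and 3.73 ± 0.40. The spindle proteins Nusap1, Spag5 and Tacc3 had 3.79 ± 0.48, 3.65 ± 0.41 and 3.55 ± 0.40, and the kinase Melk had 3.80 ± 0.41. Iqgap3, a scaffold protein outside the list, was higher by 4.05 ± 0.47. Foxm1, a transcription factor of G2 genes that was chosen after its values were seen, averaged 78.6 ± 14.8 CPM in cycling wells and 9.69 ± 10.6 CPM in low wells, with an adjusted p of 1.36e-04. The list's 4 most abundant genes had high cycling levels: Cdca3, Arl6ip1, Cks2 and Ube2s averaged 362, 336, 331 and 316 CPM in cycling wells. In low wells they averaged 31.2, 101, 55.0 and 73.5 CPM. Arl6ip1 and Ube2s therefore had counts in low wells where Prc1 and Ckap2l were at or near 0.

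The promoters of these genes were read from RefSeq windows of GRCm38.p6, 250 bases before to 50 bases after each annotated start, to show the elements known from cell cycle promoters. The CHR element is written TTTGAA here and the NF-Y box CCAAT, each searched on both strands, as were TTTGGCGC and TTTCCCGC, which are E2F-type sites. TTTGAA was found in 8 of 10 windows (80%) of the genes that chose the wells and in 35 of 52 windows (67.3%) of the other G2 and mitosis genes, of which 48 of 66 had a window. It was found in 11 of 63 windows (17.5%) of the S phase genes, of which 54 of 71 had a window, and in 17.9% of all 32851 windows. CCAAT was in 90%, 71.2% and 60.3% of the windows of these 3 lists and in 37.4% of all windows. An E2F-type site was in 0%, 7.69% and 25.4% of the windows, and in 1.57% of all. A match describes letters only and does not show binding. The 120 bases before the start are printed 5′ to 3′ on the gene's strand for 4 genes that chose the wells, for Ckap2l and Hmgb2, which were higher in cycling wells, and for Mcm6, an S phase gene that did not pass the test. Capitals mark TTTGAA (or TTCAAA, its reverse complement) and CCAAT (or ATTGG), and TTTGGCGC or TTTCCCGC and their reverse complements, and no marked motifs overlap here.
Ube2c (chr2:164769809-164769928, plus strand): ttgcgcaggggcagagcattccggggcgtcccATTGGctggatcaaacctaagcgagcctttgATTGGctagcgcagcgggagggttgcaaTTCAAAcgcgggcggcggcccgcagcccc
Cdc20 (chr4:118437344-118437463, minus strand): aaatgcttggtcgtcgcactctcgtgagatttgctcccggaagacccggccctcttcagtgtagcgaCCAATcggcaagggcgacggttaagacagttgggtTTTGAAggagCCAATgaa
Cdk1 (chr10:69352913-69353032, minus strand): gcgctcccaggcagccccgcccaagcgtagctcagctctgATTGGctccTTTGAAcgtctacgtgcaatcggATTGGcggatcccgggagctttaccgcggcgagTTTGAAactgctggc
Top2a (chr11:99024190-99024309, minus strand): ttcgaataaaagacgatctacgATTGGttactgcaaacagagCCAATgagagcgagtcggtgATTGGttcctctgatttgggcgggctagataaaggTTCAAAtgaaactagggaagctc
Ckap2l (chr2:129297213-129297332, minus strand): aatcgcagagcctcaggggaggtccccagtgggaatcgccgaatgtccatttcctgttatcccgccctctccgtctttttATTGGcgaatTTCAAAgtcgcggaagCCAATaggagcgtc
Hmgb2 (chr8:57511723-57511842, plus strand): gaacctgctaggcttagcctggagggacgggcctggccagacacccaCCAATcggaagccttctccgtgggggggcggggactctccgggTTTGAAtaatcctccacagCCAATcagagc
Mcm6 (chr1:128359706-128359825, minus strand): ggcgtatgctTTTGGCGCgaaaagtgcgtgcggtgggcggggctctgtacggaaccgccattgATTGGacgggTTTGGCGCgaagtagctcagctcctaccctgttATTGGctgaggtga
In all of the first 6 windows, TTTGAA or its reverse complement lay within 71 bases of the start together with at least 2 CCAAT boxes. These 6 genes are examples and do not stand for their lists. Over full windows, TTTGAA and CCAAT occurred together in 80% for the genes that chose the wells and 57.7% for other G2 and mitosis genes. The share was 26.5% for the chromatin list and 6.95% for all windows. Mcm6 also had 2 CCAAT boxes, had no TTTGAA in these bases, and had 2 TTTGGCGC sites, ending 103 and 40 bases before its start.

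Replication genes split. Of 71 S phase genes, 40 passed the filter, 11 were higher and 1 was lower, beside 6.86% higher and 9.06% lower of all genes tested. The median log2 fold change was 0.47, beside -0.01 over all genes tested. The 11 were Rrm2 (2.41), E2f8 (2.16), Rrm1 (1.47), Tk1 (1.33), Gmnn (1.24), Fen1 (1.10), Rpa2 (1.09), Usp1 (0.95), Tyms (0.85), Rpa3 (0.84) and Topbp1 (0.84), with log2 fold changes in parentheses. Rrm1, Rrm2, Tk1 and Tyms serve the supply of deoxynucleotides. Rrm2, the regulated subunit of ribonucleotide reductase, had 93.1, 65.0, 73.9, 57.5 and 70.0 CPM in cycling wells and 14.7, 12.995, 19.8, 0 and 9.25 CPM in low wells (adjusted p = 1.52e-04). Its cycling sums all lay above its low sums. DESeq2, which called fewer genes in all, called 4 of the 40 genes higher and none lower. The most abundant members of the list did not pass the test. Pcna, the sliding clamp of DNA polymerase, had 324, 349, 259, 238 and 324 CPM in cycling wells and 191, 305, 218, 204 and 361 CPM in low wells, and the 2 classes overlapped (log2 fold change 0.27 ± 0.15, adjusted p = 0.287). The replicative helicase subunits Mcm6 and Mcm7 had log2 fold changes of -0.21 ± 0.21 and 0.28 ± 0.18. Dut, a dUTPase, had 0.59 ± 0.22 (adjusted p = 0.0822) and passed the test when plate 4 was left out (0.81, adjusted p = 0.00608). The gene that was lower was Ung, a uracil-DNA glycosylase, with 61.0, 26.6, 23.1, 65.7 and 54.1 CPM in cycling wells and 84.6, 58.5, 84.1, 102 and 139 CPM in low wells (adjusted p = 0.0159), a call that was lost without plate 3 or plate 5 (adjusted p = 0.0719 and 0.0743) and under DESeq2 (0.0532). The 11 increases and Ung were picked out after their values were seen.

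Among G1 cyclins, CDK inhibitors and genes of cell cycle exit, 11 of 23 passed the filter, 2 were higher and 3 lower, beside 6.86% and 9.06% of all genes. Btg2, an antiproliferative protein, fell most clearly, to 51.4, 53.2, 27.7, 41.0 and 50.9 CPM in cycling wells, against 147, 182, 143, 128 and 259 CPM in low wells (log2 fold change -1.92 ± 0.22, adjusted p = 1.10e-05). Every cycling sum of Btg2 lay below every low sum. Cdkn1a, which encodes the CDK inhibitor p21, averaged 52.1 ± 11.2 CPM in cycling wells and 113 ± 13.3 CPM in low wells (adjusted p = 0.00487). Its call was lost when wells with at least 2% enterocyte counts were left out (-0.76, adjusted p = 0.154) and when the cycling wells were set against all wells under 0.15% (-0.58, adjusted p = 0.129). Gadd45a, a growth arrest gene, had a log2 fold change of -1.19 ± 0.32 and lost its call without plate 2, 3 or 5 (adjusted p = 0.108, 0.0753 and 0.0763) and under DESeq2 (0.0825). The increases were Cdkn2c, which encodes the CDK4 and CDK6 inhibitor p18, at 51.4, 44.3, 50.8, 49.3 and 44.5 CPM in cycling wells and 14.7, 6.50, 14.8, 0 and 18.5 CPM in low wells, and Cdkn1b, which encodes p27. Cdkn1b was higher on 3 of 5 plates (log2 fold change 1.07 ± 0.35, adjusted p = 0.0467) and lost its call without plate 1, 2 or 3 (adjusted p = 0.309, 0.164 and 0.105) and under DESeq2 (0.241). These 5 genes were chosen after their values were seen. The most abundant members did not pass the test: Cdk4, Ccnd1, Ccnd2 and Btg1 had log2 fold changes of 0.32 ± 0.15, -0.00 ± 0.18, 0.25 ± 0.18 and -0.40 ± 0.18. Ccnd1, which encodes the G1 cyclin D1, differed by less than the spread over plates between cycling wells (184 ± 49.5 CPM) and low wells (183 ± 34.1 CPM).

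Chromatin and nuclear factors were higher on a broad front and at high levels. Cycling wells held a median of 2.05% of counts in this list of 32 genes, against a median of 0.838% in low wells. Of 29 genes that passed the filter, 25 were higher and none was lower, beside 6.86% of all genes. H2afx, the histone variant phosphorylated at DNA breaks, had 231, 278, 273, 205 and 223 CPM in cycling wells and 29.4, 45.5, 14.8, 0 and 27.8 CPM in low wells (log2 fold change 3.17 ± 0.26, adjusted p = 3.77e-07). Hmgb2, a DNA-bending protein, had 909, 943, 947, 1075 and 849 CPM in cycling wells and 143, 214, 183, 307 and 204 CPM in low wells (log2 fold change 2.26 ± 0.15). The sums of both genes stood apart between classes on every plate. Tuba1b, an alpha-tubulin, averaged 1446 ± 168 CPM in cycling wells and 355 ± 103 CPM in low wells, and the histone variant H2afz 1619.5 ± 80.2 CPM in cycling wells and 683 ± 147 CPM in low wells. Hmgb1 had a log2 fold change of 0.98 ± 0.13 and Ptma, the most abundant member and the gene of prothymosin alpha, 0.61 ± 0.09. H2afx and Hmgb2 were picked out after their values were seen. Of 68 clustered histone genes, 2 passed the filter. The whole list held 0.0339% to 0.0758% of cycling sums and 0.0214% to 0.0353% of low sums, and was higher in cycling sums on 5 of 5 plates. Hist1h2bc went the other way and was lower, with 83.5, 115, 134, 65.7 and 85.9 CPM in cycling wells and 169, 188, 188, 179 and 176 CPM in low wells, a call that was lost without wells of at least 2% enterocyte counts (-0.39, adjusted p = 0.393). Hist1h1c had a log2 fold change of -0.15 ± 0.35 that did not pass the test. Most clustered histone messages carry no poly(A) tail, which CEL-seq primes on. Ribosome biogenesis genes, which serve growth, showed 2 increases among 23 tested, beside 6.86% of all genes, Nhp2 (0.50) and Nhp2l1 (0.51). The whole list held 0.480% to 0.530% of cycling sums and 0.337% to 0.432% of low sums, and was higher in cycling sums on each plate. Per well its median was 0.512% in cycling wells and 0.359% in low wells. The nucleolar genes Npm1, Ncl, Fbl and Nop10 had log2 fold changes of -0.06 ± 0.13, 0.16 ± 0.13, 0.15 ± 0.13 and 0.28 ± 0.15, none of which passed the test.

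**Figure D3:**
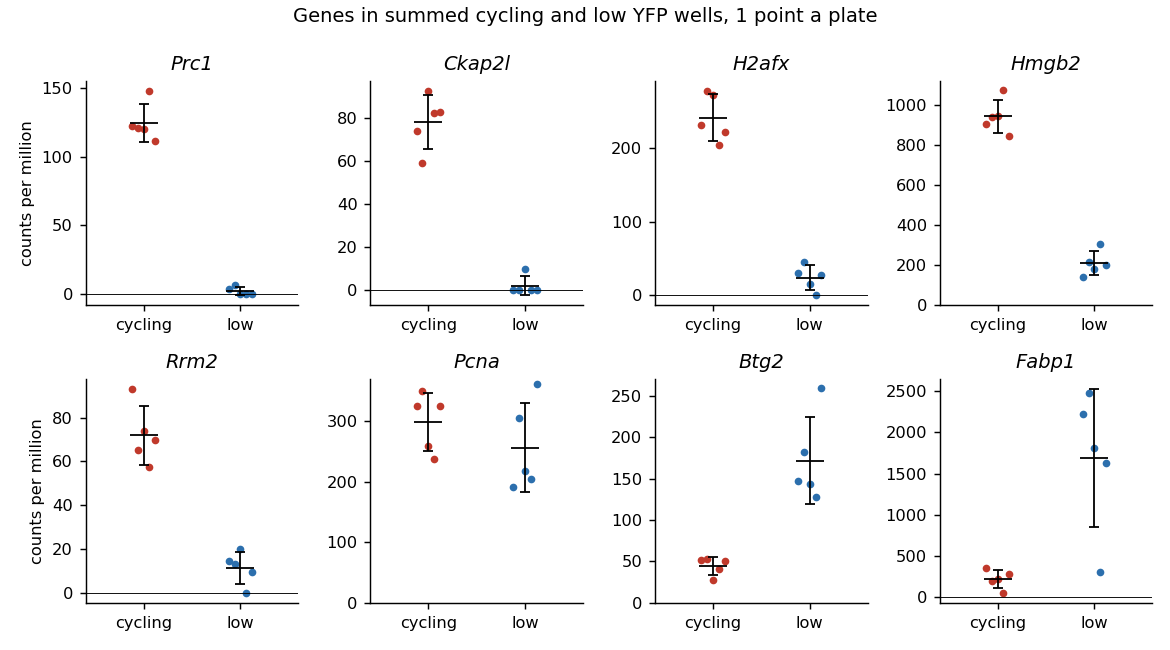
TMM-scaled counts (CPM) of 8 genes in summed cycling wells (left) and low wells (right) of the 5 YFP plates, 1 point a plate, with the mean (line) and SD (bars). Prc1, Ckap2l, H2afx, Hmgb2 and Rrm2 stand apart upwards and Btg2 downwards, Pcna overlaps between classes, and Fabp1 overlaps between classes only through the low sum of plate 4.

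Enterocyte, Paneth and goblet genes each held a smaller share of cycling sums than of low sums on 5 of 5 plates. In summed counts the list of 34 enterocyte genes held 0.304% to 0.628% of cycling sums and 0.426% to 1.89% of low sums. The list of 17 Paneth genes held 0.197% to 2.62% of cycling sums and 3.34% to 15.9% of low sums, and the list of 16 goblet genes 0.120% to 0.767% of cycling sums and 0.624% to 1.89% of low sums. Of 28 enterocyte genes tested, 27 were lower, as were 15 of 15 Paneth genes and 10 of 11 goblet genes, beside 9.06% of all genes. Genes near 0 in cycling wells could pass the filter only through the low wells, so these counts describe which genes were measurable and are not evidence about the lists. Fabp1, the liver-type fatty acid binding protein of absorptive cells, had 350.0, 189, 217, 49.3 and 283 CPM in cycling wells and 2220.4, 2476, 1810.0, 307 and 1628 CPM in low wells (log2 fold change -2.96 ± 0.17, adjusted p = 1.37e-08). It was lower on 5 of 5 plates, and plate 4 had the lowest value in both classes. Sucrase-isomaltase (Sis) and keratin 20 (Krt20), both named after their values were seen, had log2 fold changes of -2.45 ± 0.23 and -2.54 ± 0.30. Other abundant enterocyte genes fell less, Prap1 by 0.62 ± 0.13 on the log2 scale, and Fabp2 by 1.51 ± 0.21.

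High shares of enterocyte or Paneth genes were found in a minority of low wells, and the calls of these genes changed when such wells were left out. Enterocyte genes held a median of 0.484% of counts in cycling wells and 0.700% in low wells. At or above 5% of counts there were 0 of 124 cycling wells and 13 of 101 low wells for the enterocyte list, and 3 cycling and 17 low wells for the Paneth list. Without wells of at least 2% enterocyte counts, 2 of 23 enterocyte genes were lower, and calls over all genes numbered 135 higher and 129 lower of 3627. Fabp1 (-0.89, adjusted p = 0.0674), Fabp2, Sis, Krt20 and Prap1 then missed the threshold. Without wells of at least 5% secretory counts, 0 of 7 Paneth genes were called, and 5 of 8 goblet genes were higher in cycling wells. Tff3 and Spink4, goblet cell products, reversed to 1.28 (adjusted p = 0.0381) and 1.21 (adjusted p = 0.0471). Both settings leave out wells by the genes in question, so they describe where the counts lay. The list counts without wells of at least 5% secretory counts are not set beside a share over all genes.

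**Figure D4:**
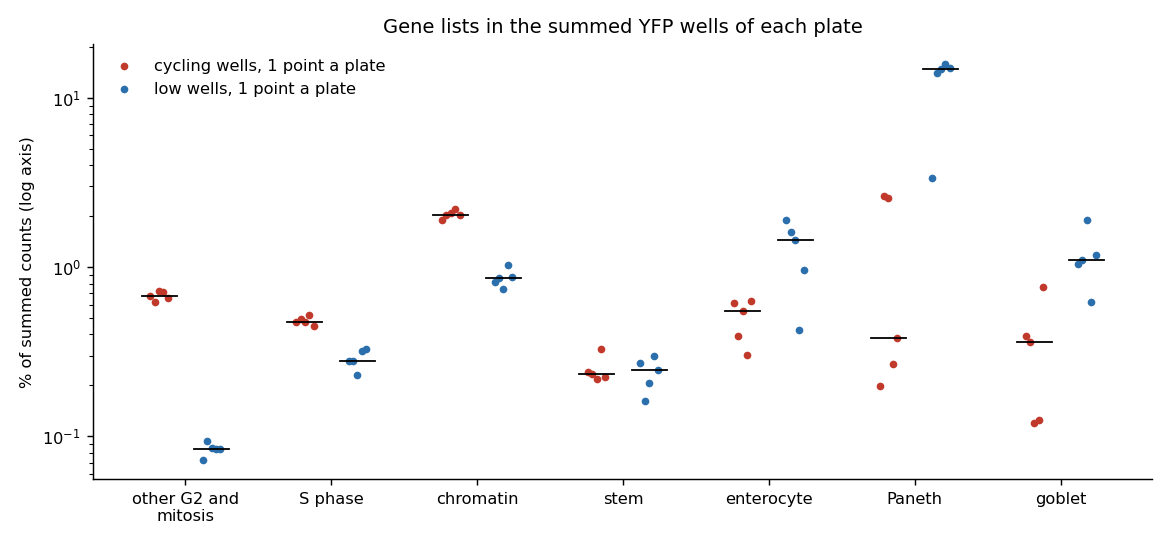
Share of summed counts (vertical axis, %, log scale) in 7 gene lists, in the summed cycling wells (left of each pair) and low wells (right) of each YFP plate, with the median as a line. Other G2 and mitosis, S phase and chromatin genes lie higher in cycling wells on each plate, stem genes overlap, and Paneth genes lie lower, with 2 cycling sums near 2.6%.

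The 12 largest decreases that met the naming rule were 11 Paneth cell products or defensin-family genes and Clps, the pancreatic colipase gene. The alpha-defensins are near-identical copies, so counts of single members are uncertain. Defa24, one of the most abundant, had 655, 4963, 5745, 772 and 954 CPM in cycling wells and 7235, 35282, 42976, 41295 and 36026 CPM in low wells (log2 fold change -3.98 ± 0.36). Plates 2 and 3 were the high ones among cycling sums. Mptx1, a pentraxin of Paneth cells, had 12.8, 5.91, 120.2, 0 and 9.54 CPM in cycling wells and 643, 890.2, 1241, 25.6 and 759 CPM in low wells. Among goblet genes, Spink4 averaged 642 ± 425 CPM in cycling wells and 4935 ± 1574 CPM in low wells, and Muc2, the gel-forming mucin, which was chosen after its values were seen, had a log2 fold change of -2.62 ± 0.33. Ccl6, a chemokine on the goblet list, had -3.85 ± 0.39. Tff3 (-1.54 ± 0.40), Zg16 (-1.64 ± 0.36) and Fcgbp (-1.46 ± 0.48), all secreted by goblet cells, were lower with wide spread over plates. Without the plate block the calls of all 3 were lost (adjusted p = 0.0741, 0.0673 and 0.156), and that of Fcgbp also under DESeq2 (0.203) and without plate 1, 2, 3 or 4 (0.0505 to 0.144). Of 21 enteroendocrine genes 2 were tested: Reg4 was lower (-4.39 ± 0.32) and Chgb, a granin, had -1.37 ± 1.05 (adjusted p = 0.456), with cycling sums from 4.62 to 501 CPM. Cd24a, found on Paneth and tuft cells and the 1 gene of the tuft list that was tested, averaged 372 ± 61.5 CPM in cycling wells and 834 ± 254 CPM in low wells (adjusted p = 6.00e-04). It lost its call without wells of at least 5% secretory counts (-0.42, adjusted p = 0.198).

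Some cycling wells held secretory or absorptive products at levels far from the rest. Paneth genes held 46.7% of counts in a well of plate 3 and 25.3% in a well of plate 2, in which the 10 mitotic genes held 0.201% and 0.185% and had 22 and 59 counts. Goblet genes held 6.53% of counts in a plate 1 well and 5.53% in a plate 5 well, with 0.354% and 0.430% in the 10 genes. Enteroendocrine genes reached 2.83% and enterocyte genes 3.68%. At 1% of counts or more there were 12 cycling wells for goblet genes, 6 for Paneth, 8 for enterocyte and 3 for enteroendocrine genes. Whether such wells held more than 1 cell was not tested. Paneth genes had counts in every cycling well, from 0.0826% upwards with a median of 0.223%, and in low wells the median was 0.304%. The part of free RNA in these low shares was not tested. Immune and stromal or endothelial lists had a median of 0 in both classes, with no gene passing the filter.

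Of 16 stem cell genes tested, none was higher and 3 were lower, beside 6.86% higher and 9.06% lower of all genes. The 3 were Lgr5, Igfbp4 and Rgmb, all picked after their values were seen. Lgr5, the receptor that marks crypt stem cells, had 73.9, 38.4, 55.5, 107 and 44.5 CPM in cycling wells and 107, 52.0, 89.0, 204 and 120.3 CPM in low wells (log2 fold change -0.77 ± 0.24, adjusted p = 0.0379). It was lower on 5 of 5 plates, but its call was lost when any 1 plate was left out (adjusted p = 0.0619 to 0.116), and without wells over 20000 counts its log2 fold change was 0.02 (adjusted p = 0.984). Igfbp4 and Rgmb missed the threshold under DESeq2, without plate 3 or plate 5 and without wells over 20000 counts, and Rgmb also without plate 1 or plate 2. Per well, the stem list held a median of 0.256% of counts in cycling wells and 0.155% in low wells. In summed counts the share of the whole list was higher in cycling than in low sums on plates 2, 3 and 4 and lower on plates 1 and 5. Slc12a2, Cdca7, Kcnq1 and Smoc2, the most abundant members, had log2 fold changes of -0.15 ± 0.15, -0.02 ± 0.19, 0.27 ± 0.16 and -0.30 ± 0.19, and Olfm4 and Ascl2, named after their values were seen, -0.57 ± 0.31 and -0.13 ± 0.27. None of these passed the test. Of 13 Notch and secretory progenitor genes 4 were tested and none was called, with 0.10 ± 0.18 for Hes1, -0.64 ± 0.23 for Hes6, -0.50 ± 0.28 for Dll1 and 0.72 ± 0.37 for Notch1.

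Several immediate early genes, which respond within minutes to stimulation and to cell isolation, were lower in cycling wells. Of 14 immediate early and stress genes tested, Fos, Fosb, Junb, Egr1, Atf3 and Zfp36 were lower and Hsp90aa1 was higher, beside 9.06% lower and 6.86% higher of all genes. The whole list held a median per well of 0.396% of counts in cycling wells and 0.370% in low wells. In summed counts its share was higher in cycling than in low sums on plates 1 and 3 and lower on plates 2, 4 and 5. Fos had 164, 157, 314, 197 and 149 CPM in cycling wells and 243, 494, 435, 664 and 786 CPM in low wells (log2 fold change -1.33 ± 0.23, adjusted p = 7.34e-04). Plate 3 had the highest cycling value of Fos. Atf3, a stress-induced transcription factor, averaged 55.0 ± 20.991 CPM in cycling wells and 229 ± 89.9 CPM in low wells. Zfp36, which encodes a protein that destabilises messages, averaged 60.2 ± 35.9 CPM in cycling wells and 234 ± 119 CPM in low wells; both were chosen after their values were seen. Without wells of at least 5% secretory counts, 2 of 13 genes of the list were lower and 2 higher, counts not set beside a share over all genes. In that setting Fos (-0.44, adjusted p = 0.330) and Atf3 (-0.63, adjusted p = 0.137) missed the threshold. Junb missed it under DESeq2 (adjusted p = 0.195) and without plate 1, 2 or 3 (0.0674 to 0.117), and Egr1 under DESeq2 (0.0770), without plate 2 or 5 (0.120 and 0.0681) and at a cycling threshold of 0.25% (0.0667). Zfp36 missed it without wells of at least 2% enterocyte counts (adjusted p = 0.311) and Hsp90aa1 under DESeq2 (0.0551). Hsp90aa1, a cytosolic chaperone, averaged 537 ± 70.5 CPM in cycling wells and 344 ± 49.2 CPM in low wells, and the abundant Hspa8 and Jun had log2 fold changes of 0.02 ± 0.10 and -0.61 ± 0.24. Of 5 tested genes of MHC class II antigen presentation, H2-Ab1 (-0.63 ± 0.15) and H2-Eb1 (-0.85 ± 0.20) were lower, beside 9.06% of all genes. DESeq2 called none of the 5, and both calls were lost without plate 1 (adjusted p = 0.0672 and 0.101). H2-Aa (-0.56 ± 0.25) and Cd74 (-0.39 ± 0.17) did not pass.

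On each plate, cycling wells held more counts per spike-in count and more genes at equal depth than low wells, in a design too small to pass 0.05. Counts per spike-in count were 12.6, 17.1, 16.1, 11.999 and 17.3 in cycling wells of plates 1 to 5, against 11.6, 12.5, 15.1, 11.9 and 11.5 in low wells. The log2 ratio averaged 0.25 ± 0.25 (SD, n = 5 plates) and was positive on 5 of 5 plates, with an exact paired permutation p of 0.0625 (two-sided), the smallest that 5 pairs can give. With wells of at least 5000 counts only, it averaged 0.08 and was positive on 3 of 5 plates (exact paired permutation p = 0.438). At an equal depth of 3000 counts, the median number of genes detected was 1562, 1606, 1572, 1562 and 1591 in cycling wells, against 1495, 1520, 1484, 1491 and 1490 in low wells. The difference was 82.4 ± 13.8 genes (SD, n = 5), positive on 5 of 5 plates, with the same exact p of 0.0625. The genes that chose the wells were counted among the genes detected, so part of this difference follows from the choice of wells. They number 10, and the plate differences ran from 67 to 101 genes. The difference without them was not tested.

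The share of cycling wells differed between YFP and Lgr5-EGFP plates by less than the spread between YFP plates. On YFP plates they made up 44.6%, 41.8%, 36.5%, 51.9% and 43.3% of wells of at least 3000 counts, against 42.3% and 40.8% on Lgr5-EGFP plates. Exact 95% binomial intervals ran from 24.7% to 49.6% on YFP plate 3 and from 31.9% to 71.3% on plate 4, and they cover counting error only. The mean shares were 43.6% ± 5.54 on YFP plates (SD, n = 5) and 41.5% ± 1.04 on Lgr5-EGFP plates (SD, n = 2), a difference of 2.09 percentage points with an exact permutation p of 0.667 (two-sided), where the smallest possible was 0.0952. After thinning each well to 3000 counts the mean shares were 41.6% on YFP plates and 41.5% on Lgr5-EGFP plates. With the threshold at 0.25% the order was the other way, 26.1% ± 8.01 on YFP plates and 34.0% ± 0.288 on Lgr5-EGFP plates (exact permutation p = 0.286). Per well, YFP cycling wells held a median of 0.281% of counts in the 10 genes and 0.677% in the other G2 and mitosis genes, and Lgr5-EGFP cycling wells 0.395% and 0.941%.

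Compared with the 61 cycling Lgr5-EGFP wells, the cycling YFP wells were higher for 20 of 29 enterocyte genes tested and lower for 6 of 7 MHC class II genes. The enterocyte list as a whole held less of the counts in cycling YFP sums, 0.304% to 0.628%, against 1.10% to 1.24% in cycling Lgr5-EGFP sums, where Reg3b and Reg3g were high. The 5 YFP sums were fitted against the 2 Lgr5-EGFP sums with edgeR's quasi-likelihood test. A gene near 0 in either set could pass the filter on low counts only through the other set. Counts of list genes called therefore describe which genes were measurable and are not evidence about the lists. Of 6800 genes, 727 (10.7%) were higher and 457 (6.72%) lower in cycling YFP wells. DESeq2 called 527 higher and 168 lower, and leaving out Lgr5-EGFP plate 1 or 2 gave 552 or 506 calls in all. The 2 kinds of cell came from different mouse lines and plates, and the Lgr5-EGFP plates were deeper (937521 and 1212923 counts), so cell population, mouse line, plate and depth cannot be told apart. After thinning all wells to 3000 counts, 196 genes were higher and 122 lower of 2158.

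Few cell cycle genes were called between these 2 sets, which the same rule had chosen. Of the 10 genes, Top2a was lower, at 526, 555, 335, 447 and 385 CPM in cycling YFP wells against 906 and 674 CPM in cycling Lgr5-EGFP wells (log2 fold change -0.80 ± 0.19). Of 63 other G2 and mitosis genes tested, 4 were lower (Fam64a, Sgol2, Cenpe and Ttk) and 1 was higher (Cdca3, 0.52). Of 63 S phase genes, 4 were lower (Dek, Exo1, Hells and Rfc1) and none was higher. Over all genes 10.7% were higher and 6.72% lower, so both lists had fewer higher calls than that and a share of lower calls near it. Of G1 genes, Cdkn1a was higher, at 72.6, 48.1, 65.0, 43.8 and 51.6 CPM in cycling YFP wells against 5.16 and 19.2 CPM in cycling Lgr5-EGFP wells (log2 fold change 2.09 ± 0.42, adjusted p = 0.00226). Cdk4 was higher by 0.99 ± 0.19 and Ccnd2 lower (-0.65 ± 0.18). The histone variants H2afz (0.65 ± 0.14) and H2afv (0.82) were higher, and Hist1h2bc too (0.91 ± 0.29).

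Of 29 enterocyte genes tested, 20 were higher in cycling YFP wells and 3 lower, beside 10.7% and 6.72% of all genes. Genes at or near 0 in Lgr5-EGFP sums could pass the filter only through the YFP sums, so this count is not evidence about the list. Fabp1 had 377, 205, 235, 52.6 and 306 CPM in cycling YFP wells, against 7.75 and 0 CPM in cycling Lgr5-EGFP wells, where it had 3 counts in all. Fabp2 averaged 725 ± 237 CPM in cycling YFP wells (SD, n = 5) and 104 ± 13.8 CPM in cycling Lgr5-EGFP wells (SD, n = 2), a log2 fold change of 2.83 ± 0.30 (adjusted p = 8.65e-06). The apolipoprotein genes Apoa1 and Apoa4 and the retinol-binding Rbp2 had 0 counts in cycling Lgr5-EGFP wells, and were at least 77.1-fold, 64.0-fold and 13.7-fold higher in cycling YFP wells against a floor of 3 counts over both plates. Apoa1 had 508, 215, 545, 35.1 and 209.8 CPM on YFP plates 1 to 5, plate 4 being the lowest. The 3 lower genes were Reg3b, Reg3g and Mgam. Reg3b, an antimicrobial lectin, had 65.7, 119, 135, 43.8 and 636 CPM in cycling YFP wells and 4874 and 4031 CPM in cycling Lgr5-EGFP wells, and Reg3g 249, 193, 245, 394 and 365 CPM in cycling YFP wells and 4513 and 3997 CPM in cycling Lgr5-EGFP wells. The whole enterocyte list, which holds both genes, ran the other way from most of its members, with a median per well of 0.484% in cycling YFP wells and 1.00% in cycling Lgr5-EGFP wells.

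Of 13 Paneth genes tested, 8 were higher in cycling YFP wells and 1, Pla2g2a, was lower (-1.71), beside 10.7% higher and 6.72% lower of all genes. Defa24 had 705, 5389, 6219, 824 and 1032 CPM in cycling YFP wells and 121 and 144 CPM in cycling Lgr5-EGFP wells, and the wells with 46.7% and 25.3% Paneth counts are on plates 3 and 2. Plates 1, 4 and 5 also lay above both Lgr5-EGFP plates. Goblet genes were higher in 5 of 11 cases, beside 10.7% of all genes. The same limit of the filter applies to these Paneth and goblet counts. Zg16 had 615, 83.4, 145, 123 and 409 CPM in cycling YFP wells and 7.75 and 0 CPM in cycling Lgr5-EGFP wells, and Spink4, Muc2, Ccl6 and Klk1 had log2 fold changes of 1.93, 1.74, 3.36 and 2.63. The call of Muc2 was lost under DESeq2 (adjusted p = 0.316), without Lgr5-EGFP plate 1 (0.0509) or plate 2 (0.304) and after thinning (0.336). Ptchd1, Pnliprp2 and Rorb, the other increases that met the naming rule, had 0, 0 and 1 counts in cycling Lgr5-EGFP wells. The call of Pnliprp2 was lost without Lgr5-EGFP plate 1 or plate 2 (adjusted p = 0.0943 and 0.148). Rorb, a nuclear receptor, ranged from 8.77 to 366 CPM over the YFP plates. It was also higher in cycling than in low YFP wells, on 4 of 5 plates (1.85 ± 0.38, adjusted p = 0.00303), but missed the threshold under DESeq2 (adjusted p = 0.0947).

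MHC class II genes were lower in cycling YFP wells, 6 of 7 tested, beside 6.72% of all genes. Genes near 0 in YFP sums could pass the filter only through the Lgr5-EGFP sums, so this count is not evidence about the list. Ciita, the transactivator of this gene set, had 3.46, 12.8, 15.0, 26.3 and 6.88 CPM in cycling YFP wells and 98.1 and 113 CPM in cycling Lgr5-EGFP wells (log2 fold change -3.24 ± 0.37, adjusted p = 1.74e-05). H2-Ab1, which encodes a beta chain, had 228, 160.5, 225, 175 and 182 CPM in cycling YFP wells and 532 and 518 CPM in cycling Lgr5-EGFP wells. H2-Eb1, another beta chain, had 166, 135, 105, 123 and 155 CPM in cycling YFP wells and 527 and 507 CPM in cycling Lgr5-EGFP wells. The plates did not overlap for these 3 genes, but the share of all genes without such overlap was not counted. Cd74, the invariant chain, had a log2 fold change of -0.57 ± 0.27 that did not pass the test. Stem genes were lower in 6 of 16 cases, Lgr5, Igfbp4, Lrig1, Rnf43, Rgmb and Prom1, beside 6.72% of all genes. The call of Rgmb was lost under DESeq2 (adjusted p = 0.223), without Lgr5-EGFP plate 1 or plate 2 (0.245 and 0.191) and after thinning (0.155). Lgr5 had 79.5, 41.7, 60.0, 114 and 48.2 CPM in cycling YFP wells and 168 and 117 CPM in cycling Lgr5-EGFP wells (log2 fold change -1.15 ± 0.27, adjusted p = 0.00698). The EGFP of the Lgr5-EGFP cells was the ground of their sort, so a difference in Lgr5 itself is no independent finding. The call for Lgr5 was lost without Lgr5-EGFP plate 1 (-0.87, adjusted p = 0.135). Of the largest decreases, Bex4 and Bex1, small brain-expressed X-linked proteins, had 0 and 1 counts in cycling YFP wells and 55 and 96 counts in cycling Lgr5-EGFP wells. Cd177, a surface glycoprotein, Ffar4, a fatty acid receptor, and the phosphatase Dusp22 had 4, 3 and 7 counts in cycling YFP wells and 110, 54 and 71 counts in cycling Lgr5-EGFP wells. Cd177 missed the threshold under DESeq2 (adjusted p = 0.0912).

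**Figure D5:**
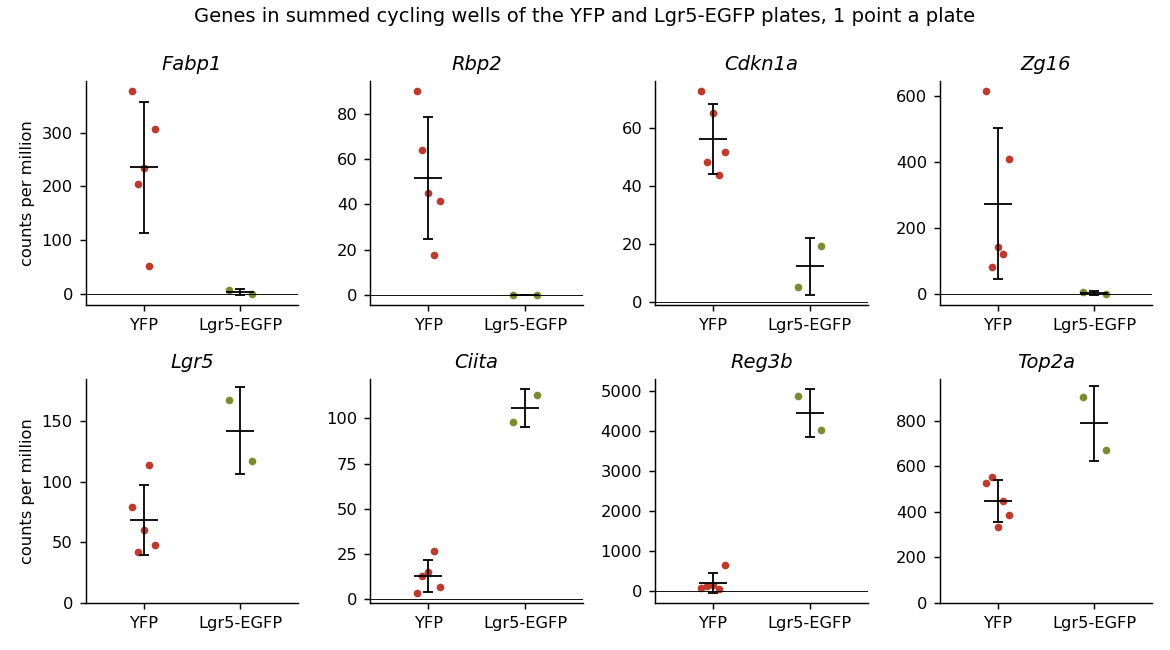
TMM-scaled counts (CPM) of 8 genes in the summed cycling wells of the 5 YFP plates (left) and the 2 Lgr5-EGFP plates (right), 1 point a plate, with the mean (line) and SD (bars). Fabp1, Rbp2, Cdkn1a and Zg16 lie higher in YFP plates and Lgr5, Ciita, Reg3b and Top2a lower, without overlap of the plates. The naming rule for genes against Lgr5-EGFP wells required plates that do not overlap.

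The 2 classes were also compared within the Lgr5-EGFP plates. Within them, fitted with both kinds of cell in one model, 199 of 7347 genes (2.71%) were higher in cycling wells and 128 (1.74%) lower, 4.45% in all. Of 62 other G2 and mitosis genes tested, 61 were higher, but wells were chosen by mitotic transcripts and genes near 0 in low wells could pass the filter only through the cycling wells, so this count is not evidence about the list. Outside the 10 genes, 97 genes were called higher in both, which is 36.7% of the 264 called in YFP wells and 85.1% of the 114 called in Lgr5-EGFP wells, among 3997 genes. For lower genes, 70 were shared, 19.3% of 362 and 85.4% of 82. Called or not, 243 of the 264 higher and 271 of the 362 lower genes had the same sign in Lgr5-EGFP wells, which come from 2 plates. Wells of both kinds were split by the same 10 genes, and the share with the same sign over all 3997 genes was not counted. The shared calls and signs are therefore a description and not evidence of agreement. Of Paneth genes, 15 of 15 were lower in cycling YFP wells and 15 of 17 in cycling Lgr5-EGFP wells. For goblet genes these counts were 10 of 11 and 7 of 13. Over all genes, 9.06% were lower in the YFP fit and 1.74% in Lgr5-EGFP wells. The limit of the filter applies to these list counts too. Of enterocyte genes, 27 of 28 were lower in cycling YFP wells, and in Lgr5-EGFP wells 2 of 33 were lower and 1 was higher. The difference between the steps passed the test for 1 of these 33 genes, Mgam. Over all genes it passed for 6 of 7347 genes (0.0817%), all lower in the YFP step: Gsta4, Mgam, Klf6, Crip1, Gstm3 and Reg3a. Unadjusted, 489 genes had a p below 0.05, and DESeq2 called 0 genes, with 167 at an unadjusted p below 0.05. Mgam, an intestinal disaccharidase, fell by 0.79 on the log2 scale in cycling YFP wells and was higher by 0.70 in cycling Lgr5-EGFP wells, a difference of -1.49 ± 0.24 (SE, adjusted p = 0.0111). Without wells of at least 2% enterocyte counts the change of Mgam in YFP wells was -0.34 (adjusted p = 0.307) and that of Gstm3 -0.43 (adjusted p = 0.373). Gsta4, a glutathione S-transferase, rested on 27 and 79 counts in cycling and low YFP wells and on 19 and 2 counts in cycling and low Lgr5-EGFP wells. Without Lgr5-EGFP plate 1 or plate 2 none of the 6 genes was called.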

How the data were processed

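Single cells were sequenced by CEL-seq with a 4-base random molecular barcode, per the labels' protocols. Per the submitters' processing notes, reads were mapped with BWA 0.6.2-r126 to mm10. The deposited values are estimated counts: each is the authors' correction of a number of distinct molecular barcodes for the 256 possible ones, and 1015748 of 1015764 nonzero YFP values gave a whole barcode number within 1e-06. They were rounded to whole numbers (change of at most 0.495).

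Spike-in and dsRed rows were left out of totals, which leaves 23538 gene rows. Wells of each class were summed per plate and tested with edgeR 4.0.16 (quasi-likelihood, TMM, filterByExpr; R 4.3.3), with Benjamini-Hochberg adjustment at 0.05; DESeq2 1.42.0 was an alternative. Plate was a block for cycling against low wells, since both classes come from one plate: their deviations from the class means correlated by 0.267, 0.142, 0.121, 0.167 and 0.217 on plates 1 to 5. The code was tested on simulated data. Permutation tests were exact and two-sided (scipy 1.17.1).

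Members and gene lists were chosen with earlier results of these data known. Named are, in each direction, at most 12 called genes of strongest fold change with at least 50 CPM that moved alike on every plate, up to 4 most abundant genes of each list, and up to 8 in each direction against Lgr5-EGFP wells (called, at least 50 CPM, plates not overlapping). For the interaction it names up to 5 genes with the smallest p; the sixth, Reg3a, and any other list member named were chosen after their values were seen. The values of 1 gene that this rule names are not reported here. Sequences are from RefSeq (GRCm38.p6). No doublet caller was run, and 288 well columns whose names match no sample were not used.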

Additional observations from a re-analysis of the deposited data

Results flagged for a closer look

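Single plates stood far from the other 4 in 18 of 242 groups of 5 plate sums (cycling and low sums of 121 named genes); chance alone does so in about 1 in 20 groups. Among cycling sums, plate 4 was high for Melk (139.5 CPM), Kcnq1 (353 CPM), Smoc2 (410.4 CPM), Hes1 (361 CPM) and Rgmb (106.7 CPM). Plate 3 was high for Mptx1 (120.2 CPM), Npm1 (1493 CPM) and Fos (314 CPM), plate 2 for Defa20 (62.1 CPM) and plate 5 for Reg3b (588 CPM). Plate 4 is the plate with the fewest wells, 14 cycling and 5 low.

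Among low sums, plate 5 was high for Mki67 (55.5 CPM) and Chgb (3590 CPM), plate 3 for Ckap2l (9.89 CPM), plate 4 for Dut (332 CPM) and plate 1 for H2-Ab1 (397 CPM). Plate 1 was low for Defa24 (7235 CPM) and AY761184 (4922 CPM), and plate 2 for Igfbp4 (71.5 CPM).

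The change between low and cycling wells differed between YFP and Lgr5-EGFP cells, by the test of the difference, for 6 genes. The log2 differences, YFP minus Lgr5-EGFP, were -5.02 for Gsta4, -1.49 for Mgam, -1.85 for Klf6, -1.28 for Crip1, -2.48 for Gstm3 and -3.87 for Reg3a.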

How the results depend on the processing

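Over all 5 YFP plates, calls for cycling against low wells numbered 636 (274 higher, 362 lower). DESeq2 called 321 (123 and 198). Without the filter on low counts 463 genes were higher. Wells thinned to 3000 counts gave 186 calls (67 and 119), and leaving out wells with at least 2% enterocyte counts gave 264 (135 and 129). Leaving out 1 plate gave 391 to 665 calls (150 to 275 higher, 234 to 390 lower). The total moved by more than 1.5 times without plate 1 or plate 3, and by 1.5 times without plate 2. Without the replicate block there were 546 calls (240 and 306), so the pairing by plate moved the count by less than 1.5 times.

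For cycling YFP against cycling Lgr5-EGFP wells, DESeq2 called 695 genes (168 lower) and thinned wells gave 318 (196 higher, 122 lower). Leaving out 1 plate gave 506 to 1288 calls (348 to 774 higher, 156 to 514 lower), the lowest without either Lgr5-EGFP plate. With the replicate block there were 982, where plates share only a number. For the difference between the steps, DESeq2 and leaving out wells over 20000 counts, an alternative chosen after seeing the data, gave 0 calls. No filter gave 50 (25 and 25), no replicate block 1, thinned wells 3 (2 higher, 1 lower) and a well minimum of 5000 counts 10 (1 higher, 9 lower). Leaving out 1 plate gave 0 to 15 (0 to 4 higher, 0 to 11 lower). Within Lgr5-EGFP plates, DESeq2 called 171 (112 and 59), thinned wells gave 104 (63 and 41), and without wells over 20000 counts there were 188 (45 lower). Leaving out 1 plate gave 163 to 348 (111 to 200 higher, 50 to 148 lower).

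The difference in the share of cycling wells turned to -7.91 percentage points with a threshold of 0.25% and to -1.14 without wells over 20000 counts, and was 0.0352 to 3.87 with 1 plate left out. Counts per spike-in count gave a log2 ratio of 0.170 to 0.312, and genes detected a difference of 77.75 to 86.25, with 1 plate left out; with a well minimum of 5000 counts they were 0.0841 and 98.4. Without wells of at least 5% secretory counts, Defa17 (0.89), Defa24 (0.11), Egr1 (0.17), Fcgbp (1.20), Gm15284 (0.13), Muc2 (0.69), Spink4 (1.21), Tff3 (1.28) and Zg16 (0.52) changed direction. So did Crip1 (0.0537) without wells of at least 2% enterocyte counts and Lgr5 (0.0182) without wells over 20000 counts. The cause of these changes was not tested. An alternative planned for discarded wells of plate 4 was not run, since the table used here holds 48 wells of that plate.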

Other observations

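The same rule was applied to the organoid cells. In wells of at least 3000 counts cycling wells made up 19 of 236 (8.05%) and 26 of 143 (18.2%) in the 2 whole organoid replicates, and 7.81% and 8.45% in the 2 replicates of Reg4-positive organoid cells. No test was made of these shares against the YFP plates.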
